A study of Mus musculus with 6 samples.

Results

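The early response of cultured mouse hepatocytes to tumour necrosis factor alpha (TNFα) was measured by comparing 2 arrays of cells exposed for 2 hours with 2 arrays of untreated cells, 4 of the 6 arrays in the series. Arrays were assigned by their titles alone. All cells were primary hepatocytes, the secretory and metabolic cells of the liver, from male C57Bl/6J mice whose age the labels do not give. They were plated on collagen in Williams' E medium with 5% fetal calf serum, 50 nM dexamethasone (a synthetic glucocorticoid) and 1 nM insulin, so the untreated cells carried both hormones too. Treated cells received 2 ng/mL recombinant murine TNFα, and the remaining 2 arrays held cells given that dose for 2 days. How long the untreated cells were cultured is not labelled, nor is the origin of the replicates, which may be different mice, different plates or the same RNA. All p-values therefore rest on array-to-array spread that could be purely technical.

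TNFα is a cytokine made largely by activated macrophages. Its receptor TNFR1 assembles a complex of adaptor proteins, ubiquitin ligases and kinases at the membrane, which activates the kinase IKK and the MAP kinases JNK and p38. IKK marks the inhibitor IκBα for destruction, which frees the transcription factor NF-κB to enter the nucleus and switch on chemokines, adhesion molecules, survival genes and its own inhibitors. In the liver this pathway is known for the acute phase response and for deciding whether hepatocytes survive or die.

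RNA was measured as the intensity of probes on Illumina mouse BeadChips, and 13438 genes passed the filter on dim probes. The arrays were alike: correlations across genes were 0.995 to 0.996 within groups, the 2 day group included, and 0.990 to 0.991 between untreated and 2 hour arrays. Intensities still held their background, which makes fold changes of dim genes too small, so calls after a background correction (normexp) are given beside them. Where a gene had other probes, one that lay under 200 on all 4 arrays, near the array median of 143.2, is called dim, since such a level can hide a change. Log2 changes are 2 hours minus untreated, with a standard error (SE) and an adjusted p from a limma fit over all genes.

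The response was narrow and mostly upward. By limma 379 genes, 2.82% of those tested, were called at an adjusted p under 0.05, of which 237 (1.76%) rose and 142 (1.06%) fell. Rises were larger than falls: 52 genes rose at least 2-fold and 13 at least 4-fold, whereas 3 fell at least 2-fold, namely G6pc, Tsc22d3 and Sgk1. Another 67 rises and 28 falls lay between 1.5-fold and 2-fold, which leaves 118 rises and 111 falls under 1.5-fold. The median log2 change was 0.58 among genes called higher, -0.46 among genes called lower and -0.01 over all genes, and the median SE was 0.10. The intensities of the 2 groups did not overlap for any called gene, but the same held for 40.4% of all genes tested. After normexp the test called 95 genes (0.707%), of which 81 rose, 14 fell and 90 were among the 379. All 379 kept their direction after normexp and with any one of the 4 arrays left out. This was fixed in advance and adds no support: the groups did not overlap, and normexp keeps the order of intensities on arrays that share 1 distribution.

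The calls rested on few arrays. Leaving out replicate 1 of the 2 hour group left 209 calls (156 rises, 53 falls), leaving out its replicate 2 left 187 (139 and 48), and leaving out untreated replicate 1 left 87 falls. In every one of the 4 fits that left out an array, 116 of the rises and 34 of the falls were called, and all 52 genes that rose at least 2-fold were among them.

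**Figure D1:**
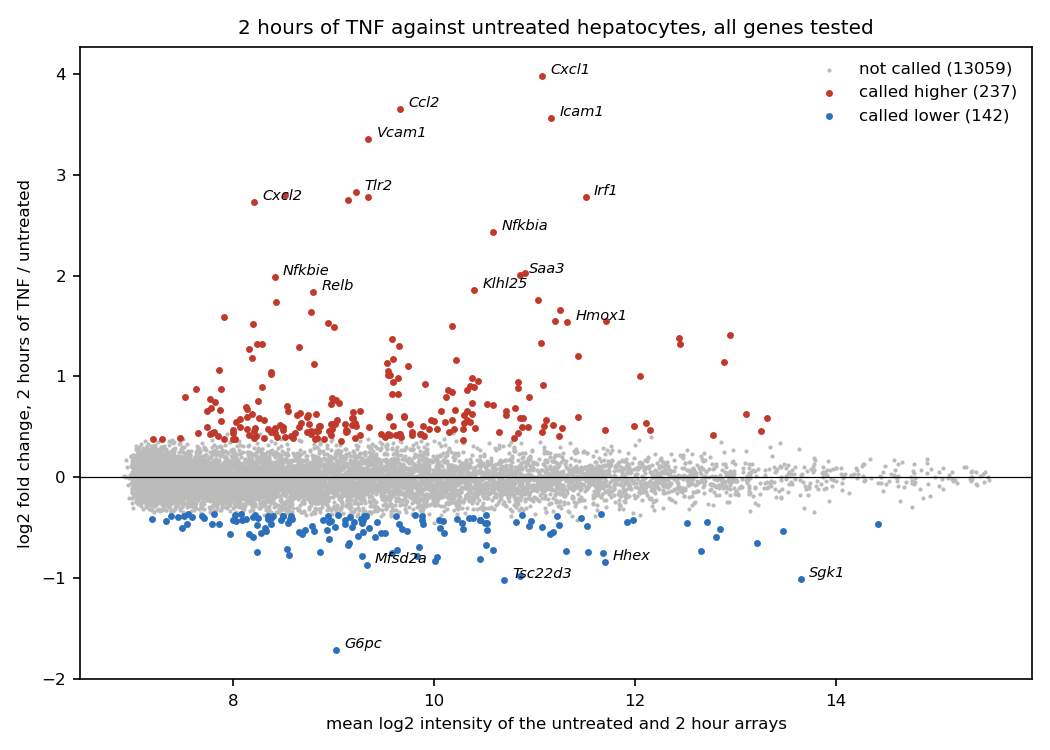
Log2 fold change at 2 hours against the mean log2 intensity of the untreated and 2 hour arrays, 1 point per gene for 13438 genes, with the 237 genes called higher in red and the 142 called lower in blue. The red points reach 3.98 (Cxcl1), while the lowest blue point is G6pc at -1.72.

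Genes were also counted in 37 lists, which were chosen with earlier results of these data known. Their shares are thus a description and give no independent support. The genes of the NF-κB system itself formed the list with the highest median. Of 10 tested subunits and inhibitors of NF-κB, 7 rose and 0 fell, against 1.76% and 1.06% of all genes, and the list's median log2 change was 0.86. Nfkbia, which encodes IκBα, lay at 633 and 693 on the untreated arrays, 3732 and 3430.1 at 2 hours and 1610.1 and 1711 at 2 days. The untreated and 2 hour values were far apart, a 5.40-fold rise (log2 2.43, SE 0.10, adjusted p = 3.32e-15 by limma), and its other probe gave 0.59. Nfkbie (IκBε) rose 3.95-fold, with 0.67 on its other probe. The atypical IκB proteins Nfkbiz and Bcl3, which act in the nucleus, rose 2.82-fold and 2.07-fold. Nfkbib (0.26) and Nfkbid (0.36) were not called. Among the DNA-binding subunits, Relb, the partner of p52 in the non-canonical pathway, rose 3.58-fold, while Nfkb2 (0.67), the precursor of p52, and Rela (0.54), the p65 subunit, rose by less. Rela lost its call without either 2 hour array (0.45 and 0.62) or untreated replicate 1 (0.46). Rel lay at 0.37 and was not called, and after normexp 6 of the 7 were called.

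Regulators that act between the receptor and NF-κB rose in part. Of 30 tested genes of TNF receptor signalling and ubiquitin regulation, 4 rose and 0 fell (13.3% called, against 2.82% of all genes), with a median of 0.08. All 4 were called after normexp and without any single array. Tnfaip3 (A20), an enzyme that edits ubiquitin chains and ends NF-κB signalling, lay at 253 and 243 on the untreated arrays, 1619 and 1777 at 2 hours and 444 and 448 at 2 days, a 6.84-fold rise at 2 hours (log2 2.77, SE 0.10, adjusted p = 1.65e-16 by limma). Birc2 (cIAP1), a ubiquitin ligase of the receptor complex that protects cells from death, lay at 968 and 937 untreated, 3898 and 3863 at 2 hours and 1597 and 1702 at 2 days, a 4.07-fold rise (adjusted p = 9.54e-14 by limma). In both genes the 3 groups stood apart, with the 2 day arrays between the others. Ikbke, an IKK-related kinase, rose 3.32-fold and Tnip1, which brings A20 to its targets, 1.93-fold. Tnfaip2, named for its induction by TNF and in none of the lists, lay at 226 and 211 untreated, 1402 and 1542 at 2 hours and 401 and 404 at 2 days, a 6.74-fold rise with 1.71 to 1.87 on its 2 other probes. Of 16 TNF family ligands and receptors 1 rose, the death receptor Fas (2.19-fold), and 0 fell by limma, with 0 lower also at an unadjusted p under 0.05. This share of 6.25%, against 2.82% of all genes called, rests on 1 gene.

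The promoters of 5 of these early genes and chemokines are shown because each holds the NF-κB consensus within the 250 bases before its RefSeq start site (build GRCm38.p6). Capitals mark the matches on either strand, which can overlap. Cxcl1 at chr5:90890995-90891244 (plus strand), Cxcl2 at chr5:90903649-90903898 (plus strand) and Nfkbia at chr12:55492648-55492897 (minus strand) hold the same 10 bases GGGAATTTCC, Nfkbia on the opposite strand. Irf1 at chr11:53769764-53770013 (plus strand) and Tnfaip3 at chr10:19015411-19015660 (minus strand) hold other forms. A match describes these letters and says nothing of binding in these cells.
Cxcl1: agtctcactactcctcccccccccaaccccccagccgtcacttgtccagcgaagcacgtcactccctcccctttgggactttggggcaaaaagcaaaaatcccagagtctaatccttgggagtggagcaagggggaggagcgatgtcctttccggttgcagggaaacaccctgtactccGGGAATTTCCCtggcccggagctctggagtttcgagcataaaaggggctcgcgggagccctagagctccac
Cxcl2: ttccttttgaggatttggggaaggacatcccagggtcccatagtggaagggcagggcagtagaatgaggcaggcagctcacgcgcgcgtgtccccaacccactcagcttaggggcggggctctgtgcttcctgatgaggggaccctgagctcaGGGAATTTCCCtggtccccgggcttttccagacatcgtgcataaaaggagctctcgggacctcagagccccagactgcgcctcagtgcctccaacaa
Nfkbia: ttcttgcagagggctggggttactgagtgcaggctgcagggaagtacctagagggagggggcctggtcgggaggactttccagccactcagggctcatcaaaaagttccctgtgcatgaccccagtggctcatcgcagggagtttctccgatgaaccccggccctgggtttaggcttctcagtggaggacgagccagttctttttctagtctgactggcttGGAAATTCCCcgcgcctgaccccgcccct
Irf1: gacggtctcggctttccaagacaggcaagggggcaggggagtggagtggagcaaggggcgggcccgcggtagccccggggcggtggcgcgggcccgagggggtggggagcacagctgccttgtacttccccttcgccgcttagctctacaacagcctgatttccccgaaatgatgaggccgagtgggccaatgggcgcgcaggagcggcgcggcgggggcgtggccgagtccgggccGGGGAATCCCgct
Tnfaip3: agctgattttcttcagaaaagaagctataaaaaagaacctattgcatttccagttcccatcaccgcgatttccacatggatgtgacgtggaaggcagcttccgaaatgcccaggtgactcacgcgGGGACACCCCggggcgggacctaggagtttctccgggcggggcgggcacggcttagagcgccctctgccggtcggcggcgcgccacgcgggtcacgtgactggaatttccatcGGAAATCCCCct
The match begins 71 bases before the start in Cxcl1, 97 in Cxcl2, 29 in Nfkbia and 13 in Irf1, and the 2 stretches in Tnfaip3 begin 125 and 12 bases before it.

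Chemokines, the secreted proteins that draw leukocytes into tissue, supplied 5 of the 30 largest rises. Of 18 tested, 10 rose and 0 fell (55.6% called, against 2.82% of all genes), with a list median of 0.52 on the log2 scale. After normexp 8 were called. Cxcl1, which attracts neutrophils, lay at 574 and 514 on the untreated arrays, 8544 and 8613 at 2 hours and 2054 and 2255 at 2 days. Its 2 hour arrays nearly coincided and stood 15.8-fold above untreated cells (log2 3.98, SE 0.10, adjusted p = 3.27e-19 by limma). Ccl2, which attracts monocytes, lay at 261 and 199 untreated, 2658 and 3059 at 2 hours and 2401 and 2186 at 2 days, a 12.5-fold rise at 2 hours. Cxcl2, a second neutrophil chemokine encoded next to Cxcl1, lay at 115 and 115 on the untreated arrays, 653 and 886 at 2 hours and 129 and 124 at 2 days. Its rise was 6.62-fold as deposited (log2 2.73, adjusted p = 5.02e-15 by limma), against an untreated level that was below the array median and near the lowest intensity in the table, 96.5. Only the 2 hour arrays of Cxcl2 lay above the array median. It thus passed the filter through the arrays where it was high, and its p adds no independent support. Ccl7, another monocyte chemokine, rose 3.01-fold and Cxcl10, a ligand of the chemokine receptor Cxcr3, 2.87-fold. To complete the list, Ccl9 (1.30), Cxcl16 (0.90), Ccl20 (0.87), Cxcl9 (0.66) and Ccl4 (0.38) also rose, the last without a call in any fit that left out 1 array (0.32 to 0.43). The 8 not called lay between -0.18 (Cxcl12) and 0.27 (Ccl3). Of 25 cytokines and growth factors 2 rose, the macrophage growth factor Csf1 (0.68) and Pdgfb (0.44), and 0 fell (8% called, against 2.82% of all genes). Pdgfb lost its call without replicate 2 of the 2 hour group (0.35) and without either untreated array (0.43 and 0.45).

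**Figure D2:**
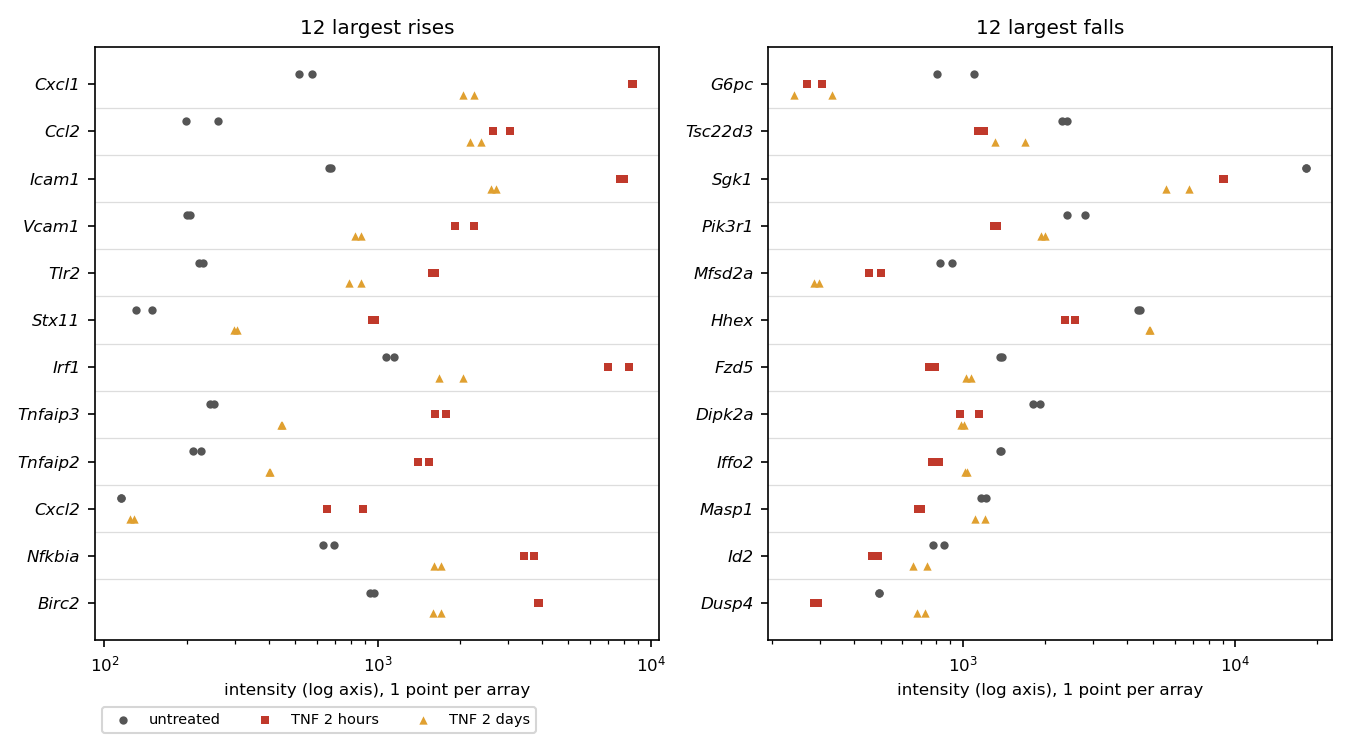
Intensity on each array (log axis) for the 12 strongest rises and 12 strongest falls at 2 hours, 1 point per array for untreated cells, 2 hours and 2 days. The 2 hour points of each gene lie clear of the untreated points, which the choice of these genes required. Most 2 day points of the rising genes lie between the untreated and 2 hour points.

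Among receptors that hold leukocytes to cells 3 rose, Icam1 and Vcam1 by far the most. Icam1, a ligand of leukocyte integrins, lay at 662 and 674 on the untreated arrays, 7992 and 7746 at 2 hours and 2723 and 2604 at 2 days, an 11.8-fold rise at 2 hours (log2 3.56, SE 0.10, adjusted p = 9.7e-19 by limma). Vcam1, a ligand of the integrin VLA-4, lay at 207 and 201 untreated, 1914 and 2252 at 2 hours and 824 and 868 at 2 days, a 10.2-fold rise (adjusted p = 1.02e-17 by limma), and of its 2 other probes 1 was called (0.84) and 1 was dim on all 4 arrays. In each gene the 2 groups were separated by more than the spread within either. Of 12 tested adhesion genes these 3 rose and 0 fell (25% called, against 2.82% of all genes), with a median of 0.14, and 9 did not pass the test. The third, the proteoglycan Sdc4 (0.57), lost its call without replicate 1 (0.58) or 2 (0.56) of the 2 hour group and after normexp.

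Sensors of microbes rose in part. Tlr2, the receptor for bacterial lipopeptides, lay at 221 and 229 on the untreated arrays, 1586 and 1618 at 2 hours and 784 and 869.5 at 2 days, a 7.12-fold rise at 2 hours (log2 2.83, SE 0.10, adjusted p = 1.37e-16 by limma). Irak3, an inhibitor of signalling by such receptors, rose 3.12-fold, and their adaptor Myd88 1.74-fold. Cd14, a co-receptor for endotoxin, rose 1.52-fold but lost its call without untreated replicate 1 (0.41). These were the 4 of 22 tested pattern recognition genes that rose, and 0 fell (18.2% called, against 2.82% of all genes). After normexp 2 were called.

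Interferon-linked genes rose in part, mostly by small amounts. Irf1, a transcription factor that drives interferon-inducible genes, lay at 1147 and 1073 on the untreated arrays, 6984 and 8318 at 2 hours and 1681 and 2061 at 2 days, a 6.87-fold rise at 2 hours (log2 2.78, SE 0.11, adjusted p = 1.99e-15 by limma). The lowest 2 hour array was several times the highest untreated one, and all 4 of its other probes were called higher (0.85 to 2.81). Irf5 rose 2.50-fold, and the other 5 tested interferon regulatory factors were not called (28.6% of the list called, against 2.82% of all genes). Of 30 interferon-stimulated genes 8 rose and 0 fell (26.7% called, against 2.82% of all genes), with a median of 0.21. Gbp2, an interferon-inducible GTPase, rose 2.44-fold, the ADP-ribosyltransferase Parp14 1.82-fold and the GTPase Ifi47 1.66-fold. Irgm2 (0.56) and Rsad2 (0.53) lost their calls without replicate 2 of the 2 hour group (0.39 and 0.30) or untreated replicate 2 (0.35 and 0.34). Without either of these arrays 3 members were called, and after normexp 1 was. Of 21 antigen presentation and immunoproteasome genes 2 rose, Psmb10, a subunit of the immunoproteasome (0.73), and Tapbpl, a peptide editor (0.65), and 0 fell (9.52% called, against 2.82% of all genes). Neither was called after normexp.

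Inhibitors of cytokine signalling included 2 rises among 14 tested genes and no fall by limma (14.3% called, against 2.82% of all genes). Cish, which blocks signalling through STAT5, rose 3.39-fold and Socs2, an inhibitor of growth hormone signalling, 1.89-fold. Both were called after normexp. Of 23 cytokine receptors, JAKs and STATs 4 rose and 0 fell (17.4% called, against 2.82% of all genes). All 4 rose by under 1.5-fold: the interferon gamma receptor chains Ifngr1 (0.58) and Ifngr2 (0.49), Osmr (0.50) and Il15ra (0.45). None of these 4 was called after normexp, and 1 of the list was called without replicate 1 or 2 of the 2 hour group or untreated replicate 1. Where a call was lost, the values were 0.44 and 0.43 for Ifngr1, 0.52, 0.46 and 0.35 for Ifngr2, and 0.44, 0.46 and 0.37 for Il15ra. Osmr lost its call without replicate 2 of the 2 hour group (0.32) or of the untreated group (0.35).

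**Figure D3:**
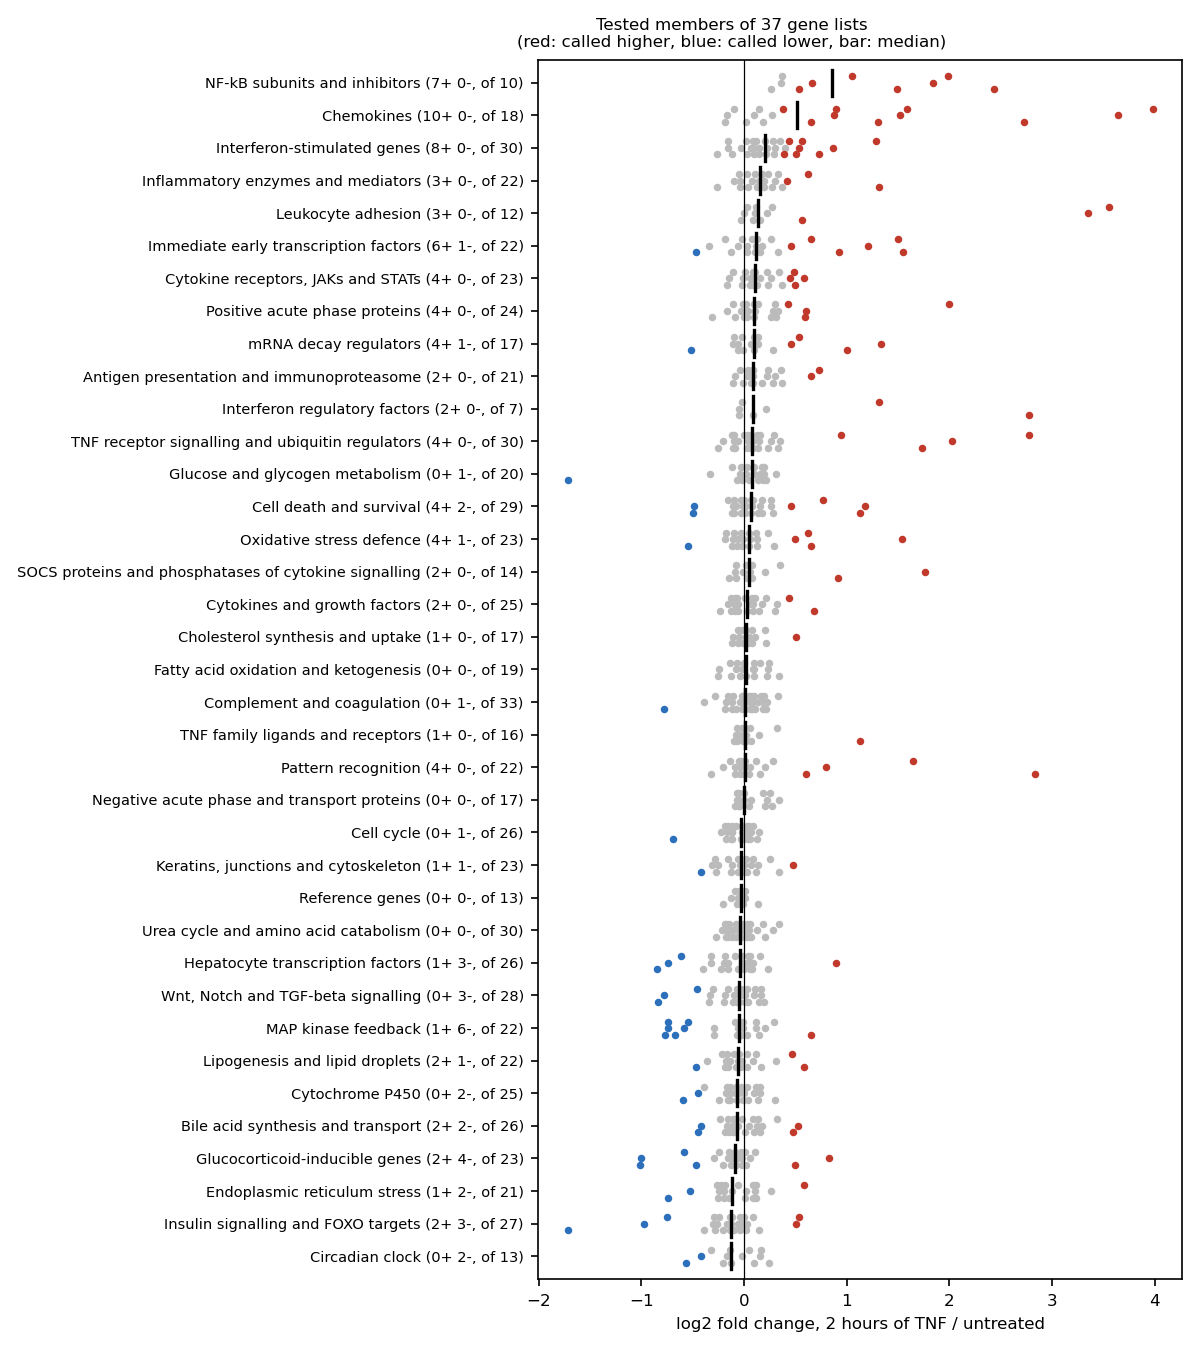
Log2 change at 2 hours of every tested member of 37 gene lists, 1 point per gene, with called genes in colour, the list's median as a bar, and its counts called higher and lower in the label. The NF-κB list (median 0.86) and the chemokines (0.52) stand to the right, and most other medians lie near 0.

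Immediate early genes, transcription factors and others, rose without the full set moving. Of 22 tested genes 6 rose and 1, Ccn2 (-0.47), fell (31.8% called, against 2.82% of all genes). The fall was lost without replicate 2 of the 2 hour group (-0.42). Junb, a subunit of AP-1, rose 2.83-fold on its brightest probe, and its other probe was dim on all 4 arrays. Ier3, an early response gene that affects survival, rose 2.92-fold, the zinc finger factor Egr1 2.31-fold, the matricellular protein Ccn1 1.90-fold and Fosl2, another AP-1 subunit, 1.58-fold. After normexp 4 of the list were called. Of 17 regulators of mRNA decay 4 rose and 1 fell (29.4% called, against 2.82% of all genes). Noct, a clock-linked nuclease-like protein, rose 2.52-fold and the antiproliferative Btg1 2.00-fold. Zfp36 (0.54), which destabilises TNF mRNA, its relative Zfp36l1 (0.46) and Tob1 (-0.52) lost their calls without replicate 1 (0.53, 0.44 and -0.53) or 2 (0.55, 0.48 and -0.50) of the 2 hour group, and without untreated replicate 2 (0.37, 0.39 and -0.39).

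Cell death genes moved in both directions. Of 29 tested, 4 rose and 2 fell (20.7% called, against 2.82% of all genes), with a median of 0.07. Bid, which links death receptors to mitochondria, rose 2.26-fold, Fas 2.19-fold and the pro-apoptotic Bcl2l11 (Bim) 1.71-fold. Apaf1 (0.46), which activates caspase 9, completed the rises, without a call when either 2 hour array (0.45 and 0.46) or untreated replicate 1 (0.33) was left out. Mcl1, a survival factor, fell by 0.50 on the log2 scale and Casp9, the initiator caspase, by 0.49. Mcl1 lost its call without replicate 2 of the 2 hour group (-0.40) or untreated replicate 1 (-0.46), and Casp9 without replicate 2 of either group (-0.44 each). Bid, Fas and Bcl2l11 were called after normexp.

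Acute phase proteins, which hepatocytes secrete in inflammation, were called higher at 2 hours in 4 of 24 cases (16.7%, against 1.76% of all genes). Saa3, a serum amyloid A, lay at 930.3 ± 104 in untreated cells and 3712 ± 76.6 at 2 hours (SD, n = 2 each), a rise of 2.00 on the log2 scale (SE 0.10, adjusted p = 3.69e-13 by limma). Of the 24 positive acute phase genes 0 fell, and only Saa3 was called after normexp. Crp (0.59) lost its call without replicate 2 of the 2 hour group (0.44) or of the untreated group (0.46), and Cfb (0.43) without either 2 hour array (0.35 and 0.52) or untreated replicate 2 (0.25). Of 17 negative acute phase and transport proteins limma called 0, with 4 higher and 0 lower at an unadjusted p under 0.05. Of 33 complement and coagulation genes 1, Masp1, fell and 0 rose. This share of 3.03% lies near the 2.82% of all genes called, so it says nothing of the list.

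Of 23 genes of oxidative stress defence 4 rose and 1 fell (21.7% called, against 2.82% of all genes). Hmox1, the inducible enzyme that degrades haem, lay at 1508 ± 95.2 in untreated cells and 4366 ± 130.2 at 2 hours (SD, n = 2 each), a 2.90-fold rise (log2 1.53, adjusted p = 5.23e-11 by limma). Alas1, the rate-limiting enzyme of haem synthesis, fell by 0.73 on the log2 scale. Nfe2l2 (Nrf2), the master regulator of antioxidant genes, rose 1.57-fold, and Sod2, the mitochondrial superoxide dismutase, 1.55-fold. After normexp 1 of the list, Hmox1, was called. The fall was that of Gclc (-0.55), which lost its call without replicate 1 of the 2 hour (-0.39) or the untreated (-0.49) group. Among 22 inflammatory enzymes and mediators 3 rose, led by Pde4b, a cyclic AMP phosphodiesterase (2.49-fold), and 0 fell (13.6% called, against 2.82% of all genes). The others were Sod2 and Gch1 (0.42), and after normexp only Pde4b was called. Gch1 lost its call without either 2 hour array (0.33 and 0.50) or untreated replicate 1 (0.29), and its other probe, not dim, was not called (0.23).

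Several of the 30 largest rises stood in none of the lists. Stx11, a syntaxin of vesicle fusion, lay at 149 and 130.1 on the untreated arrays, 980.3 and 954 at 2 hours and 299 and 306 at 2 days, a 6.95-fold rise at 2 hours as deposited (log2 2.80, adjusted p = 1.81e-16 by limma), from an untreated level near the array median. The 3 groups were well apart. Klhl25, an adaptor of a cullin ubiquitin ligase, rose 3.61-fold, Plpp3, which breaks down bioactive lipid phosphates, 3.16-fold and Rcan1, an inhibitor of the phosphatase calcineurin, 2.92-fold. Rcl1, a factor of ribosomal RNA processing, rose 2.66-fold and Pcyox1, which degrades prenylcysteines, 2.61-fold. Rassf5, a Ras and Rap effector, rose 2.88-fold on its brightest probe, and its other probe was dim on all 4 arrays. Of the 2 other probes of Rcan1 1 was called higher (1.91) and 1 was dim. Of the 2 other probes of Rcl1 1 was called higher (1.49), and 1 that was not dim was not called (0.21). All 30 of the largest rises were called after normexp and with any one array left out.

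Falls were fewer and smaller, and G6pc fell the most. In bulk RNA of this kind, fewer cells with a transcript and less of it per cell cannot be told apart. G6pc, the enzyme of the last step of glucose release, lay at 807 and 1096 on the untreated arrays, 304 and 269 at 2 hours and 333 and 241 at 2 days. The untreated arrays spread widely but stayed above both 2 hour arrays, a fall of 1.72 on the log2 scale (SE 0.14, adjusted p = 1.66e-09 by limma). Pik3r1, the regulatory subunit of the insulin-activated phosphoinositide 3-kinase, lay at 2405 and 2818 untreated, 1307 and 1337 at 2 hours and 1945 and 2004 at 2 days, a fall of 0.98 (adjusted p = 3.36e-07 by limma). Foxo1, the insulin-restrained transcription factor that promotes G6pc, fell by 0.75, and its other probe was dim on all 4 arrays. Of 27 genes of insulin signalling and FOXO targets these 3 fell and 2 rose (18.5% called, against 2.82% of all genes), with a median of -0.12. The rises were those of the growth factor binding proteins Igfbp1 (0.53), which lost its call without replicate 2 of the 2 hour group (0.44), and Igfbp2 (0.50), which lost it without replicate 1 of the 2 hour (0.41) or untreated (0.49) group. After normexp G6pc and Pik3r1 were called. Of 20 genes of glucose and glycogen metabolism G6pc alone was called by limma (5%, against 2.82% of all genes). At an unadjusted p under 0.05 1 was higher and 2, G6pc included, were lower.

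Genes known to be induced by glucocorticoids also fell in part, in medium that held dexamethasone in every group. Tsc22d3 (GILZ), a glucocorticoid-induced anti-inflammatory protein, lay at 2403 and 2321 on the untreated arrays, 1197 and 1140.0 at 2 hours and 1693 and 1311 at 2 days, a fall of 1.02 on the log2 scale (SE 0.11, adjusted p = 6.53e-07 by limma). Of its 2 other probes 1 was called lower (-0.44), and the other (0.08) lay near the background at 192 to 216. Sgk1, a kinase induced by glucocorticoids, lay at 18133 and 18227 untreated, 9114 and 8997 at 2 hours and 6744 and 5589 at 2 days, with hardly any spread among the untreated arrays, a fall of 1.01 (SE 0.11, adjusted p = 2.84e-07 by limma). Dusp1, a MAP kinase phosphatase, fell by 0.59 and the phosphatidate phosphatase Lpin1 by 0.46. Lpin1 lost its call without replicate 2 of the 2 hour group (-0.35) or untreated replicate 1 (-0.30). The 23 tested genes of this list thus held 4 falls, but also 2 rises, Bcl6 (0.83) and the metallothionein Mt2 (0.49), which lost its call without replicate 2 of the 2 hour (0.33) or untreated (0.31) group. The median was -0.09, and 26.1% of the list was called, against 2.82% of all genes. After normexp 2 falls, Tsc22d3 and Sgk1, and 1 rise, Bcl6, were called.

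The promoter of Sgk1, at chr10:21993640-21993889 of GRCm38.p6 on the plus strand (RefSeq), is shown because it holds the glucocorticoid response element, in capitals, beginning 188 bases before the start. Of the promoters of genes called lower, 1.13% held this element, against 0.344% of the promoters of all genes tested, a difference that rests on 2 promoters.
Sgk1: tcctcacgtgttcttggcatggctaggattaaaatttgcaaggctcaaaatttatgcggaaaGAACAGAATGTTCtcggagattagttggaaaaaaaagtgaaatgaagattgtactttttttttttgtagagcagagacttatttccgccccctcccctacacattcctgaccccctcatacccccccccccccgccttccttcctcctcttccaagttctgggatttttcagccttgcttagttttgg

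Feedback regulators of MAP kinases fell more often than they rose. Of 22 tested, 6 fell and 1, Gadd45b (1.57-fold), rose, against 1.06% and 1.76% of all genes. Dusp4, a nuclear MAP kinase phosphatase, lay at 493 and 495 on the untreated arrays, 295 and 284 at 2 hours and 678 and 727 at 2 days. Both 2 hour arrays were below the untreated ones and both 2 day arrays above them, and the fall at 2 hours was 0.77 (SE 0.10, adjusted p = 8.23e-06 by limma). The pseudokinase Trib3 fell by 0.74, Dusp10, a phosphatase of JNK and p38, by 0.74, and the stress sensor Gadd45g by 0.67. Dusp1 and Gadd45a (-0.54) were the other falls, Gadd45a without a call when either 2 hour array (-0.54 and -0.55) or untreated replicate 2 (-0.25) was left out. After normexp 1 of the 7, Dusp4, was called. The 2 other probes of Trib3, neither of them dim, were not called (-0.35 and -0.30).

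Transcription factors of hepatocyte identity and liver development were split. Hhex, a homeobox factor of liver development, lay at 4487 and 4401 on the untreated arrays, 2373 and 2589.7 at 2 hours and 4882 and 4813 at 2 days, a fall of 0.84 at 2 hours (SE 0.10, adjusted p = 2.12e-06 by limma). The 2 hour arrays stood alone, below those of both other groups. Foxa2, a pioneer factor of liver genes, fell by 0.74 and Prox1 by 0.61, while Nr5a2 (LRH-1), a nuclear receptor of bile acid and cholesterol genes, rose 1.86-fold. The other 22 of 26 tested, Hnf4a (-0.20) and Cebpa (-0.16) among them, were not called. The list had 15.4% called, against 2.82% of all genes. After normexp Hhex and Nr5a2 were called.

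Signalling genes of development also included falls and no called rise. Fzd5, a Wnt receptor, lay at 1389 and 1365 on the untreated arrays, 794 and 753 at 2 hours and 1027 and 1073 at 2 days, a fall of 0.83. Id2, an inhibitor of helix-loop-helix factors, lay at 852 and 777 untreated, 463 and 487 at 2 hours and 656 and 742 at 2 days, a fall of 0.78. The calls of Fzd5 and Id2 both held after normexp. With Notch1 (-0.46) these were 3 falls among 28 genes of Wnt, Notch and TGF-β signalling, against 0 rises by limma and 0 higher at an unadjusted p under 0.05. The list had 10.7% called, against 2.82% of all genes. Notch1 lost its call without replicate 1 (-0.47) or 2 (-0.45) of the 2 hour group or untreated replicate 2 (-0.42).

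Other large falls were those of genes in various lists or in none. Mfsd2a, a lysophosphatidylcholine transporter, lay at 915 and 826 on the untreated arrays, 501 and 451 at 2 hours and 285 and 296 at 2 days, a fall of 0.87 at 2 hours (adjusted p = 2.04e-06 by limma). Masp1, a protease of the lectin pathway of complement, lay at 1218 and 1164 untreated, 702 and 688 at 2 hours and 1108 and 1212 at 2 days, a fall of 0.78. Neither of its 2 other probes was called: 1 was dim, and 1 of similar brightness gave -0.21. The latter lay at 1211 and 994 untreated and 945 and 950 at 2 hours, so the fall of Masp1 rests on 1 probe. Dipk2a lay at 1810.5 and 1917 untreated, 1146 and 978 at 2 hours and 982 and 1012 at 2 days, a fall of 0.82. In these 3 genes, as in every called gene and in 40.4% of all genes tested, the 2 hour arrays did not overlap the untreated ones. Iffo2 lay at 1383 and 1369 untreated, 772 and 815 at 2 hours and 1019 and 1039 at 2 days, a fall of 0.79, and its other probe (-0.36) was not called. Angptl8, a hormone-like regulator of lipoprotein lipase, fell by 0.67, the potassium channel Kcnk5 by 0.71 and Plk3, a stress-responsive kinase, by 0.69. Cyp26a1, which degrades retinoic acid, fell by 0.60, and lost its call without replicate 2 of the 2 hour group (-0.55). The co-repressor Tle1 (-0.59) lost its call without replicate 1 of that group (-0.47) and the membrane protein Emp1 (-0.65) without untreated replicate 1 (-0.41). The 2 other probes of Tle1, neither of them dim, were not called (-0.23 and -0.32). The remaining 6 of the 30 largest falls, Tsc22d2, Tbcel, Sowahb, Slc25a30, Tuft1 and the already named Alas1, lay between -0.75 and -0.65. Of these 30 falls 12 were called after normexp, among them Kcnk5 but not Dipk2a, Angptl8, Plk3, Cyp26a1, Tle1 or Emp1.

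The lists of liver metabolism ranged from 0 calls to 15.4% of members called, against 2.82% of all genes. By limma 0 of 30 genes of the urea cycle and amino acid catabolism were called, with 2 higher and 1 lower at an unadjusted p under 0.05. Of 19 fatty acid oxidation and ketogenesis genes 0 were called, with 4 higher and 2 lower unadjusted. Of 25 cytochrome P450 genes 2 (8%) fell, Cyp26a1 and the drug-metabolising Cyp2b10 (-0.44), and 0 rose. Without replicate 2 of the 2 hour group neither was called, with Cyp2b10 at -0.29, and Cyp2b10 also lost its call without either untreated array (-0.46 and -0.42). Bile acid synthesis and transport had 2 rises, Abcg5 and Cyp7b1, and 2 falls, Abcb4 and Cyp7a1, the rate-limiting enzyme of bile acid synthesis (-0.42), among 26 genes. Without replicate 2 of the 2 hour group 0 of these 4 were called (Abcg5 0.44, Cyp7b1 0.26, Abcb4 -0.46, Cyp7a1 -0.32). The falls were also lost without replicate 1 of that group (-0.44 and -0.52) or untreated replicate 1 (-0.42 and -0.28), and the rises without untreated replicate 2 (0.40 and 0.35). Cyp7a1 lay near the background, at 185 and 154 untreated and 135 and 118 at 2 hours. It passed the filter through its untreated arrays alone, where it was high, so its call adds no independent support. Lipogenesis (13.6% called) had 2 of 22 higher, Cidec, a lipid droplet protein, and Dgat2, an enzyme of triglyceride synthesis, and 1 lower, Lpin1. Cidec lost its call without replicate 1 of either group (0.53 and 0.49), and Dgat2 without either 2 hour array (0.46 and 0.48) or untreated replicate 2 (0.30). Cholesterol synthesis had 1 of 17 (5.88%) higher, Srebf2 (0.51), lost without replicate 2 of the 2 hour group (0.48) or untreated replicate 1 (0.45). The other probe of Srebf2, not dim, was not called (-0.01). None of the calls in these 4 lists held after normexp.

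A few further lists held 1 to 3 calls each. Against 2.82% of all genes, 15.4% of clock genes and 14.3% of endoplasmic reticulum stress genes were called. So were 8.70% of keratin, junction and cytoskeleton genes and 3.85% of cell cycle genes, the last near the share of all genes. The circadian repressors Cry2 (-0.57) and Per2 (-0.42) fell among 13 clock genes, Per2 without a call when either 2 hour array (-0.31 and -0.52) or untreated replicate 1 (-0.29) was left out. Of 21 endoplasmic reticulum stress genes Calr, a chaperone, rose (0.59) and Trib3 and Herpud1 (-0.53) fell. Calr lost its call without replicate 2 of the 2 hour group (0.48) or untreated replicate 1 (0.45), and Herpud1 without either 2 hour array (-0.53 each) or untreated replicate 1 (-0.43). Of 23 keratin, junction and cytoskeleton genes Cdh1 (0.48) rose and Cldn1 (-0.41) fell. Cldn1 lost its call in each of the 4 fits without 1 array (-0.49 to -0.34), and Cdh1 without either 2 hour array (0.41 and 0.54) or untreated replicate 1 (0.44). Of 26 cell cycle genes 1 fell, Plk3, and of 13 reference genes limma called 0, with 0 at an unadjusted p under 0.05 in either direction. None of the calls in these lists held after normexp.

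Markers were set beside the response to see which cells the RNA came from. Of 12 hepatocyte markers 11 were tested and 0 called by limma, with 1 higher and 1 lower at an unadjusted p under 0.05. Their summed intensity was 108853 to 114717 on the untreated arrays and 110974 to 111785 at 2 hours. Apoa1 and Ttr were among the brightest of all probes, whereas the probes that stood for Alb and Fgb lay under 200, near the background. Of 16 macrophage markers 11 were tested and 0 called, with 0 higher and 2 lower unadjusted, and 10 of these 11 lay under 200 in untreated cells. Their sum was 1819 to 1899 untreated and 1788 to 1823 at 2 hours. Of 12 tested endothelial markers limma called 0 (1 higher unadjusted), with sums of 3136 to 3148 and 3134 to 3305, and of 5 lymphocyte and neutrophil markers 0 (0 unadjusted). Of 9 tested stellate cell and fibroblast markers 1 rose, Reln (0.43), with sums of 5316 to 6402 and 5088 to 5617. This is 11.1% called, against 2.82% of all genes, and rests on 1 gene. The call of Reln was lost in each of the 4 fits without 1 array (0.40 to 0.46). Of 5 tested bile duct markers 1 (20%, against 2.82% of all genes called) rose, Sox9, a transcription factor of duct cells and injured hepatocytes, 1.73-fold. That list's sum went from 1510 and 1558 to 2106 and 2153, while Krt19, Krt7, Cldn7 and Muc1, at or near the background, lay between -0.17 and 0.03. Whether cells other than hepatocytes had a part in any rise was not tested.

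The 2 day arrays show what became of these genes under the same dose. This comparison shares the 2 hour arrays that chose the genes, so the values are a description. Against 2 hours, 6.67% of all genes tested were lower at 2 days and 8.63% higher by limma. Of the 30 largest rises 27 were lower at 2 days than at 2 hours. Cxcl2 was 2.59 lower on the log2 scale, Irf1 2.03 and Cxcl1 2.00. The 3 that did not pass the test were Ccl2 (-0.32), Saa3 (0.30) and Ccl7 (-0.10). Cxcl2, Klhl25, Hmox1, Rassf5, Cxcl10, Rcl1, Pcyox1 and Rcan1 were not called at 2 days against untreated cells, with log2 changes of 0.14, -0.04, 0.01, -0.03, 0.17, 0.08, -0.10 and 0.24. Of the 30 largest falls 17 were higher at 2 days than at 2 hours, among them Dusp4 (1.28) and Hhex (0.97), and 3 were lower still: Mfsd2a (-0.71), Sgk1 (-0.56) and Tle1 (-0.36). The other 10 were not called, G6pc (-0.02) and Foxo1 (-0.09) among them. Time in culture and exposure to TNFα cannot be told apart in the 2 day arrays.

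Background in the intensities bore on how large a dim gene's change appeared. Of the 52 genes that rose at least 2-fold, 11 had an untreated mean under 200, and 50 of the 52 were called after normexp. Cxcl2 lay at 2.73 as deposited and 4.82 after normexp, Stx11 at 2.80 and 4.21 and Ccl7 at 1.59 and 2.80. The untreated levels of these 3 lay near or below the array median, so their values after normexp depend on how much background it takes off and give neither a size nor a rank. Bright genes changed little, with Rcl1 at 1.41 and 1.43.

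**Figure D4:**
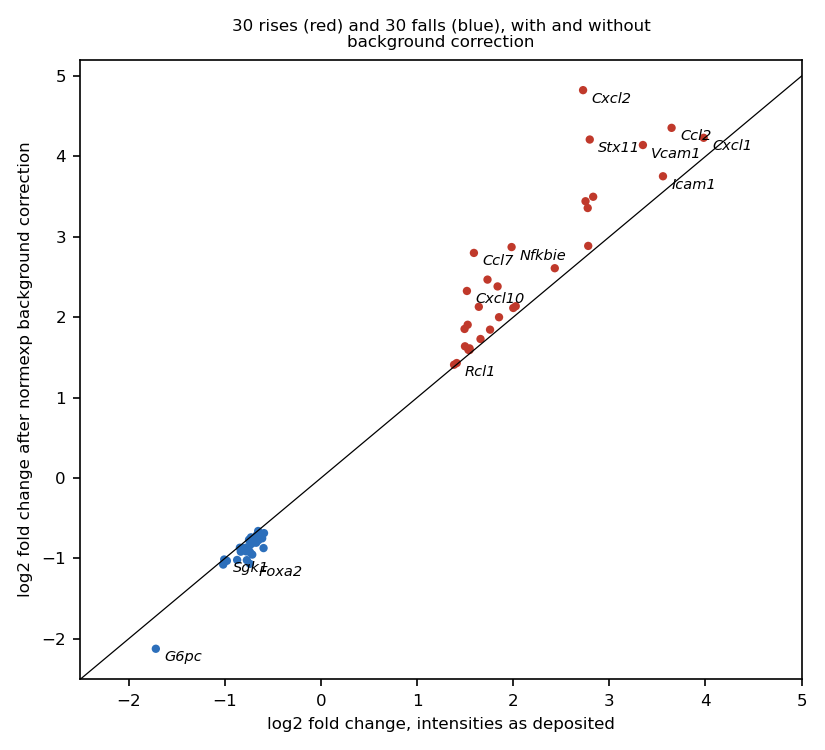
Log2 change at 2 hours for the 30 largest rises (red) and 30 largest falls (blue), from the intensities as deposited (horizontal axis) and after normexp background correction (vertical axis), with the line of equality. Dim genes such as Cxcl2 (2.73 and 4.82) and Stx11 (2.80 and 4.21) lie furthest above the line, and their untreated levels are too near the background for the vertical value to give a size.

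Different probes of a gene often disagreed in size. Of 117 genes called higher that had another passing probe, 51 had another one called in that direction, and 164 of their 186 other probes had the same sign. Of 72 genes called lower, 19 had another probe called in that direction, with 85 of 105 of the same sign. The other probes without a call include dim ones, such as those of Foxo1, Junb and Rassf5. They also include brighter ones, such as those of Tle1 (-0.23 and -0.32), Trib3 (-0.35 and -0.30) and Srebf2 (-0.01), so dimness does not cover all of them.

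Promoters of the called genes were searched for motifs, on both strands, from 250 bases before to 50 after each RefSeq start (GRCm38.p6). Of 30 named rises 24 had an entry and 11 held the NF-κB consensus: Cxcl1, Tlr2, Irf1, Tnfaip3, Tnfaip2, Cxcl2, Nfkbia, Nfkbie, Ier3, Cxcl10 and Rcl1. Of the 30 named falls 26 had an entry and 4 held the consensus, and of all genes tested that had an entry 11.6% did. With the overlapping shorter form GGNNTTTCC, 14 of the named rises held either, for which no share over all genes was made. The consensus was found in 32.8% of 61 promoters of genes that rose at least 2-fold, 18.8% of 192 promoters of smaller rises, 11.3% of 177 promoters of falls and 9.94% of 13664 promoters of all genes tested. The shorter form gave 29.5%, 13%, 2.26% and 5.87% in the same order. The AP-1 motif TGANTCA gave 13.1%, 7.81%, 5.08% and 6.21%, and the interferon-gamma activated sequence TTCNNNGAA 11.5%, 9.90%, 5.08% and 7.30%. The interferon response element core GAAANNGAA gave 9.84%, 7.81%, 6.21% and 7.26%. The forkhead motif GTAAACA was found in 1.64%, 2.60%, 3.39% and 2.73%. Over all 32851 promoters of the table the NF-κB consensus was found in 8.46%, the shorter form in 5.82%, AP-1 in 7.81%, the interferon-gamma sequence in 8.30%, the interferon core in 8.56%, forkhead in 3.65% and the glucocorticoid element in 0.475%. Promoters of 1 gene can overlap, no test was made, and a match is not a site of binding.

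**Figure D5:**
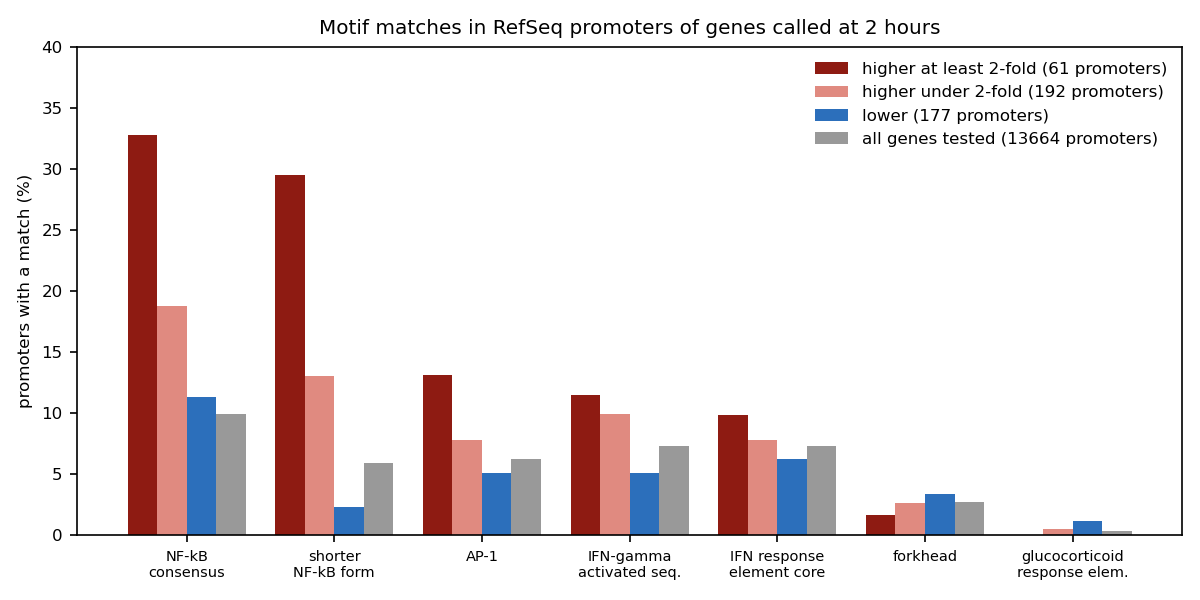
Share of RefSeq promoters (%) holding each of 7 motifs, for genes that rose at least 2-fold, smaller rises, falls and all genes tested. The NF-κB consensus stands at 32.8%, 18.8%, 11.3% and 9.94% in these 4 sets.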

How the data were processed

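RNA of 6 arrays was measured as biotin-labelled cRNA on Illumina mouse BeadChips, per the labels' protocols. The deposited intensities are linear, and the 6 columns share 1 distribution (medians 143.2), as after quantile normalization, which no label names. The authors' scanning and summary software: not given in the sources used here. Background was not subtracted (lowest intensity 96.5). No depth applies to arrays, and their number limits precision.

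Of 45281 probes 34885 had 1 gene symbol in the platform's probe table, 18 had more than 1 and 10378 had no entry. Names were brought up to date by entrez identifier for 34807 probes with RefSeq names (GRCm38.p6). Probes above the 50th percentile on at least 2 arrays passed, the brightest per gene was kept, and log2 values of all 6 arrays were fitted with limma 3.58.1 (R 4.3.3; residual degrees of freedom 3, prior 21.22), with Benjamini-Hochberg adjustment. The spread behind each p is thus mostly shared over genes. A gene could pass the filter through the 2 arrays of 1 group alone, as Cxcl2 and Cyp7a1 did. The fit was tested on simulated data. Normexp used an offset of 16.

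The 37 gene lists (803 of 993 genes tested), 6 marker lists and the genes named were chosen with earlier results of these data known. Genes named were the 30 largest called rises and 30 largest called falls whose arrays do not overlap, without clone names, and up to 5 called members per list. Ccl4, Ccl9, Ccl20, Cxcl9, Cxcl16, Apaf1, Ccn2, Gadd45a, Nfkb2 and members not called were named after their values were seen. Promoters and motifs were read from RefSeq with Python 3.11.15.

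Whether replicate numbers pair the arrays is not labelled, and the main fit used no pairing. Deviations of same-numbered arrays from their group means correlated at -0.15 (untreated and 2 hours), -0.075 (untreated and 2 days) and 0.036 (2 hours and 2 days). Such weak values show no pairing by number but cannot exclude one, since a shared source may add little spread.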

Additional observations from a re-analysis of the deposited data

Results flagged for a closer look

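For 10 of the named genes the calls at 2 hours and at 2 days against untreated cells had opposite directions, and the difference between the times, itself tested by limma, was called. The comparisons share the untreated arrays. Values are 2 days minus 2 hours on the log2 scale. Cish, an inhibitor of STAT5 signalling, was higher than untreated at 2 hours (1.76) and lower at 2 days (-0.51), a difference of -2.27 (adjusted p = 1.55e-14 by limma). Mt2, a metallothionein, differed by -1.65, Zfp36, which destabilises TNF mRNA, by -1.37, and Igfbp1, a binding protein of insulin-like growth factors, by -1.26. Reln, counted here as a stellate cell marker, differed by -1.25, the lipid droplet gene Cidec by -1.18, the sterol transporter Abcg5 by -1.16, Dgat2 by -1.12 and the acute phase gene Crp by -0.95. Of these 9, all but Cish lost their 2 hour call without at least 1 array and after normexp. Dusp4, a MAP kinase phosphatase, was lower than untreated at 2 hours (-0.77) and higher at 2 days (0.51), a difference of 1.28 (adjusted p = 5.18e-10 by limma).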

How the results depend on the processing

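None of the 125 named genes changed direction under the alternatives run, nor did any of the 379 called genes after normexp or without 1 array. For the 379 this was fixed in advance, as their groups did not overlap. Normexp gave 95 calls, 81 higher and 14 lower, and 52 list members (118 as reported). Averaging the probes of each gene gave 250 calls and 79 lower, at an adjusted p under 0.01 229 and 65, and at least 1.5-fold 150, 119 higher, 31 lower and 75 list members. Leaving out 1 array gave 187 to 279 calls, 139 to 180 higher, 48 to 99 lower and 76 to 100 list members; fewer arrays were fitted, and the cause of the other shifts was not tested. With the replicate block 363 genes were called (230 higher, 133 lower) and 118 list members, and no call of a named gene changed. A crossed pairing, chosen after seeing the data, gave 523 calls, 290 higher and 233 lower. Median centring, cyclic loess, an offset of 16, a filter at the 70th percentile or none, trended or robust variances and a fit of the 2 groups alone gave 355 to 386 calls. Of 125 named genes 56 kept their call throughout and 69 lost it at least once, 66 of them after normexp. Named rises lower at 2 days were 27, or 25 after normexp.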

Other observations

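Some genes called higher lie next to each other in the order of the RefSeq gene table (GRCm38.p6). Of 236 placed rises 18 (7.63%) had a called rise as a direct neighbour, against 2.51% of 13122 tested genes that had one. They form 9 pairs. The chemokine pairs Cxcl1 and Cxcl2 (3.98 and 2.73) and Ccl2 and Ccl7 (3.65 and 1.59) are related genes. The other pairs include Rassf5 and Ikbke (1.53 and 1.73), Vcam1 and Extl2 (3.35 and 0.56), Cish and Mapkapk3 (1.76 and 0.38), and Parp14 and Dtx3l (0.87 and 0.51). Of 142 falls 4 (2.82%) had a called fall beside them, against 1.54% of tested genes: Hyal1 and Hyal2, which degrade hyaluronan (-0.44 and -0.47), and Pfkfb2 and Yod1 (-0.54 and -0.45). No test was made of these shares.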
